A study of Mus musculus with 6 samples.

Results

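The genes described are the glucose transporters Slc2a1, Slc2a3 and Slc2a4 and the hexokinase Hk1, 4 genes chosen by symbol, each carried by 1 probe of a directed array of 223 probes. They make up 4 of the 203 genes that the platform annotation names. Their identifiers are Entrez gene 20525 for Slc2a1 (probe 19F), 20527 for Slc2a3 (19G), 20528 for Slc2a4 (19H) and 15275 for Hk1 (20B). All 6 arrays were of soleus, a small postural calf muscle rich in slow fibres, from C57Bl/6 mice that the labels call control and, in the titles, wt. Total RNA came from cryosections of the muscle, with 3 µg used per array. The titles carry a further short code that the labels leave unexplained, and the sources used here give no age, sex or number of separate mice. The spread over arrays may therefore be partly technical.

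Glucose enters a cell through facilitative transporters of the SLC2 family and is then trapped as glucose 6-phosphate by a hexokinase. In skeletal muscle Slc2a4 encodes GLUT4, the transporter that insulin and contraction bring from internal vesicles to the surface. Slc2a1 encodes GLUT1, a widely expressed transporter that is also abundant in endothelium and nerve sheaths. Slc2a3 encodes GLUT3, a high-affinity transporter best known from neurons and blood cells. Hk1 encodes the hexokinase of most tissues, which binds to mitochondria, while muscle fibres also use the isoform encoded by Hk2, which is not among the genes named for this array.

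The RefSeq promoter table (GRCm38.p6) held start regions for 2 of the 4 genes, Slc2a1 and Hk1. Only these 2 genes could be shown, and no link between the letters around their starts and their signal on the arrays was tested. Each region runs from 250 bases before to 50 after an annotated start. Capitals mark matches, on either strand, to the TATA box (TATAAA), the CAAT box (CCAAT), the GC box (GGGCGG) or the core of the hypoxia response element (ACGTG), and no match overlaps another. These are the Slc2a1 region at chr4:119108495-119108794 (plus strand) and, of 2 annotated Hk1 starts, the one at chr10:62340372-62340671 (minus strand).
Slc2a1: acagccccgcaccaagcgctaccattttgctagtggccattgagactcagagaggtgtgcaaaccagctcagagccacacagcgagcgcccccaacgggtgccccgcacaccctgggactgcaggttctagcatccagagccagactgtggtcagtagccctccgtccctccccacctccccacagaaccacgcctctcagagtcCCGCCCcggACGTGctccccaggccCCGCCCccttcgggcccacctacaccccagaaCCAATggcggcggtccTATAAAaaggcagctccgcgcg
Hk1: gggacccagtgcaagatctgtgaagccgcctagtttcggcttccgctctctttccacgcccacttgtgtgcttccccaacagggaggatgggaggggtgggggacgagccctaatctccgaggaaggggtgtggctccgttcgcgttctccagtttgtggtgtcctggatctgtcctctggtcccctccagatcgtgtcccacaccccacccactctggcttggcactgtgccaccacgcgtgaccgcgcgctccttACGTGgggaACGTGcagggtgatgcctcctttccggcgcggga

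The Slc2a1 region held 1 TATAAA, 1 CCAAT, 2 GGGCGG and 1 ACGTG match, while the Hk1 region shown held 2 ACGTG matches and 0 of the others. The TATAAA of Slc2a1 begins 28 bases after the annotated start. The other Hk1 start, at chr10:62379859-62380158 (minus strand), had 0 matches to each. Of all 32851 regions of this length, 13.6% held TATAAA, 37.4% CCAAT, 35.7% GGGCGG and 19.6% ACGTG. A match is a description of the letters and not of a bound factor.

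The arrays differed in overall brightness, and summed intensities were 31.0 to 125.2, highest in control 4. Each array's noise bound was taken as the size of its most negative intensity and was 0.0018 to 0.0087. Levels are log2 intensities minus the median of the same array over 152 measured genes and probes. A level carries the affinity of its probe, so it ranks arrays for 1 gene and does not rank transcripts. Markers of muscle fibres gave signal throughout. All 7 on the array, among them the slow myosin heavy chain Myh7, myoglobin and desmin, lay above the noise bound on all 6 arrays. Of all 223 probes 47.5% did, as did 4 of the 5 endothelial markers, so detection alone does not identify the tissue. In a bulk sample, fewer cells of a type and less RNA per cell cannot be told apart.

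Both Slc2a4 and Slc2a1 exceeded the noise bound of every array, so 2 of the 4 genes were detected throughout, where 47.5% of all 223 probes were. Slc2a4 was far above background, with intensities of 0.107, 0.0979, 0.134, 0.3781, 0.076 and 0.0827 in controls 1 to 6. These were 15.8-fold to 45.9-fold the noise bound of their arrays, with control 2 the nearest to background. The Slc2a1 probe read 0.0143, 0.0105, 0.014, 0.0402, 0.0088 and 0.0098, only 1.69-fold to 5.44-fold the bound. Control 4 was the brightest for both, as it was for the summed intensity.

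The other 2 genes were near background on some arrays. Slc2a3 read 0.0084, 0.0053, 0.0126, 0.0392, 0.0091 and 0.0096. It lay above the bound on 5 arrays and at 0.855 times the bound in control 2. The Hk1 intensities were 0.0053, 0.0005, 0.0043, 0.0156, 0.0019 and 0.0021. Hk1 was above the bound on 4 arrays, by at most 1.79-fold, and below it in controls 2 and 5. Intensities were deposited in steps of 0.0001, so the Hk1 value of control 2 rests on very few steps and has no reliable size. A bound of 3 SD of the values at or below 0 left Hk1 above background on 2 arrays and did not alter the number for the 3 transporters.

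**Figure D1:**
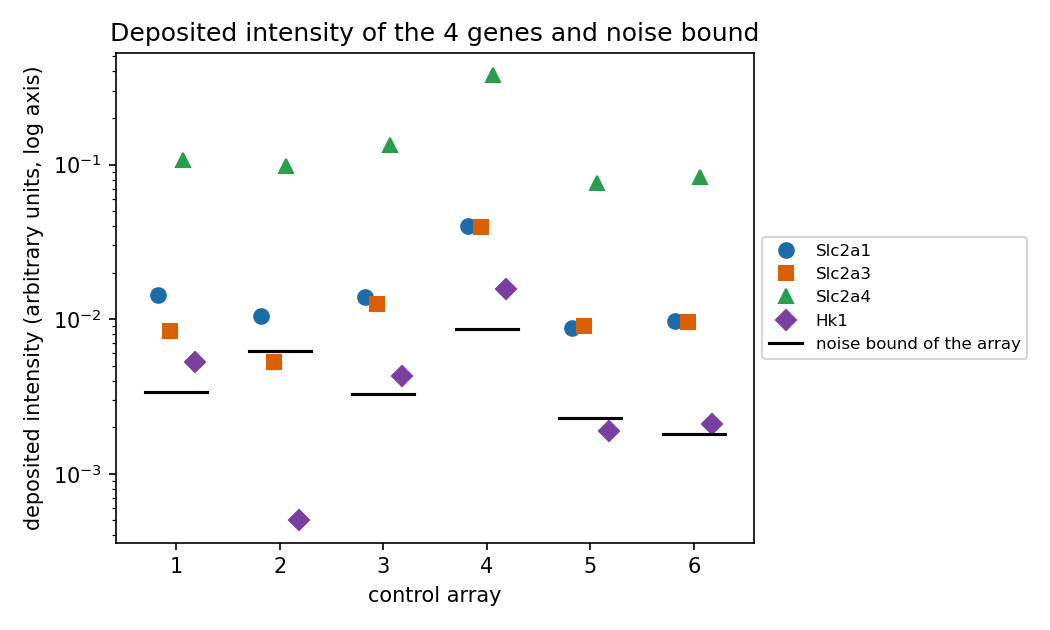
Deposited intensity (arbitrary units, log axis) of the 4 genes on each of the 6 control arrays, with a black bar at the noise bound of the array. Slc2a4 lies 15.8-fold or more above the bound on every array, Slc2a3 falls below it in control 2, and Hk1 in controls 2 and 5.

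Once each array was centred on its median, the 3 transporters had SDs of 0.30 to 0.35. This likeness depended on the centring, since centring on the summed intensity gave an SD of 0.20 for Slc2a1, 0.19 for Slc2a4 and 0.55 for Slc2a3. Slc2a4 had levels of 2.73, 2.78, 2.48, 2.67, 1.89 and 2.37 in controls 1 to 6, a mean of 2.48 ± 0.33 (log2, SD, n = 6). Control 5 was lowest, 1.85-fold below control 2, and the other 5 arrays lay close together. Without control 5 the SD was 0.18. Slc2a1 had levels of -0.17, -0.45, -0.78, -0.56, -1.22 and -0.71, a mean of -0.65 ± 0.35 (log2, SD, n = 6). It was highest in control 1 and lowest in control 5, a 2.07-fold difference.

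The transporter Slc2a3 ranked the arrays differently. Its levels were -0.94, -1.43, -0.94, -0.60, -1.17 and -0.74, a mean of -0.97 ± 0.30 (log2, SD, n = 6). Control 4 was highest and control 2, below the noise bound, was lowest, at least 1.52-fold apart with the bound in its place. The hexokinase gene varied most, with Hk1 levels of -1.60, -4.84, -2.49, -1.93, -3.43 and -2.93 and a mean of -2.87 ± 1.17 (log2, SD, n = 6). In control 2 the noise bound corresponds to a level of -1.21, above every measured Hk1 level, so that array has no rank for Hk1. Raising values below the noise bound to the bound brought its SD to 0.77, and leaving out control 2 brought it to 0.74.

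**Figure D2:**
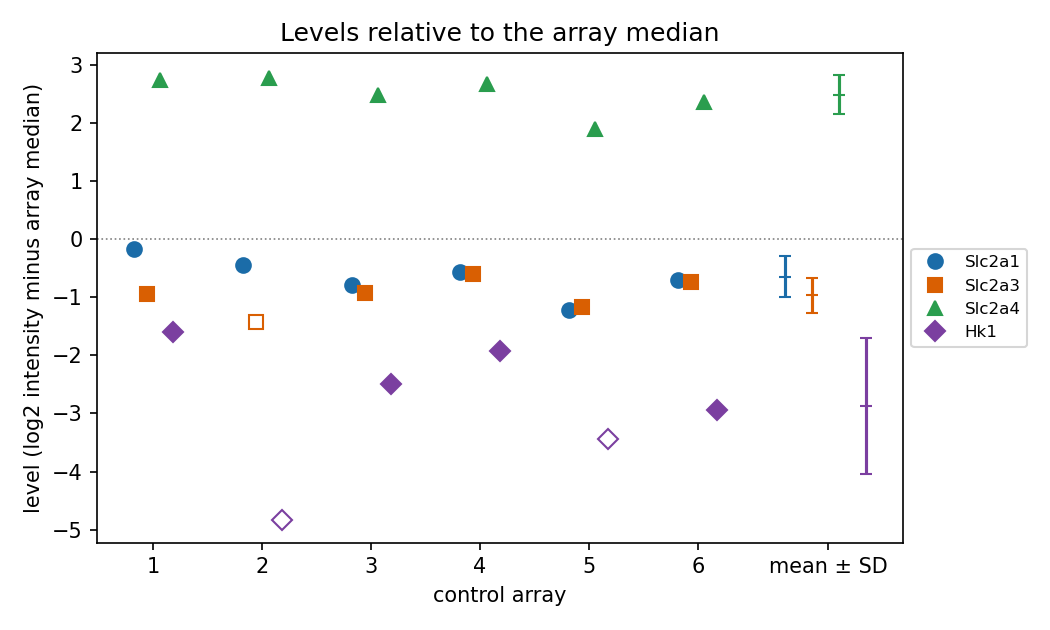
Level (log2 intensity minus the array median) of each gene on each control array, with open symbols for values below the noise bound and bars at the right for mean ± SD over the 6 arrays. Slc2a1 and Slc2a4 are both lowest in control 5, and Slc2a3 in control 2.

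Each gene's spread was set against that of genes of like intensity by a one-sided F test on limma's prior variance, fitted over all 152 measured genes and probes. Of those, 1.32% passed at an adjusted p under 0.05, and 0 of the 4 genes did, also 0 at an unadjusted p under 0.05, which 5.92% of the 152 had. Adjusted p-values in limma were 0.961 for Slc2a1, 0.988 for Slc2a3, 0.974 for Slc2a4 and 0.921 for Hk1. The SDs of the 3 transporters, 0.30 to 0.35, were below the median SD of 0.54 over all 152. The larger SD of Hk1 lay near the prior SD of 1.04 for genes as dim.

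**Figure D3:**
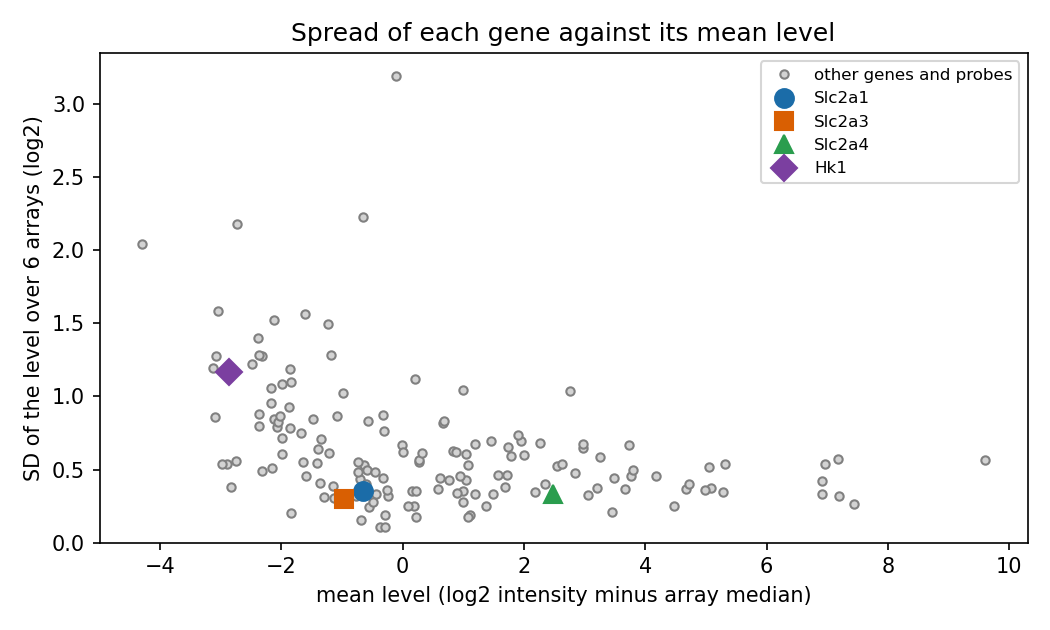
SD of the level over the 6 arrays (log2) against the mean level, with 1 point for each of the 152 measured genes and probes. The 3 transporters lie at SDs of 0.30 to 0.35, and Hk1 lies at 1.17 among other dim genes.

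Ratios between transporter genes within an array are free of the brightness of that array. Their size carries the affinities of both probes and does not say which transcript is more abundant. Affinity cancels from their variation over arrays only where both signals lie far above background. Nearer the noise bound, as for Slc2a1, Slc2a3 and Hk1, noise can add to that variation. The prior SD was 1.04 at the level of Hk1, and 0.46 to 0.51 at those of the 3 transporters. The signal of Slc2a4 was 7.48, 9.32, 9.57, 9.41, 8.64 and 8.44 times that of Slc2a1 in controls 1 to 6. The ratio thus differed by at most 1.28-fold between arrays, although the intensity of Slc2a4 differed 4.97-fold and that of Slc2a1 4.57-fold. Control 1 had the lowest ratio, and the other 5 lay within a narrow range. The log2 ratio of Slc2a1 over Slc2a4 was -3.13 ± 0.13 (SD, n = 6), and its SD was 0.081 without control 1.

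The ratio of Slc2a1 to Slc2a3 was not as even. It was 1.70 and 1.98 in controls 1 and 2, and 1.11, 1.03, 0.967 and 1.02 in controls 3 to 6. Controls 1 and 2 therefore stood above the other 4 arrays, with no overlap, on a split that was seen in the values and not tested. In control 2 Slc2a3 was below the noise bound, and with the bound in its place the ratio was at least 1.69. The log2 ratio was 0.32 ± 0.44 (SD, n = 6), and 0.19 as a mean without control 2. Over the 5 arrays with both genes above the bound the ratio differed by up to 1.76-fold.

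The signal of Slc2a4 was 12.7, 18.5, 10.6, 9.65, 8.35 and 8.61 times that of Slc2a3. Again controls 1 and 2 were the highest, and control 5 was the lowest. The value of control 2 is at least 15.8 with the noise bound in place of Slc2a3. The log2 ratio of Slc2a3 over Slc2a4 was -3.45 ± 0.43 (SD, n = 6). Its SD was 0.25 without control 2, and the ratio then differed by at most 1.53-fold.

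**Figure D4:**
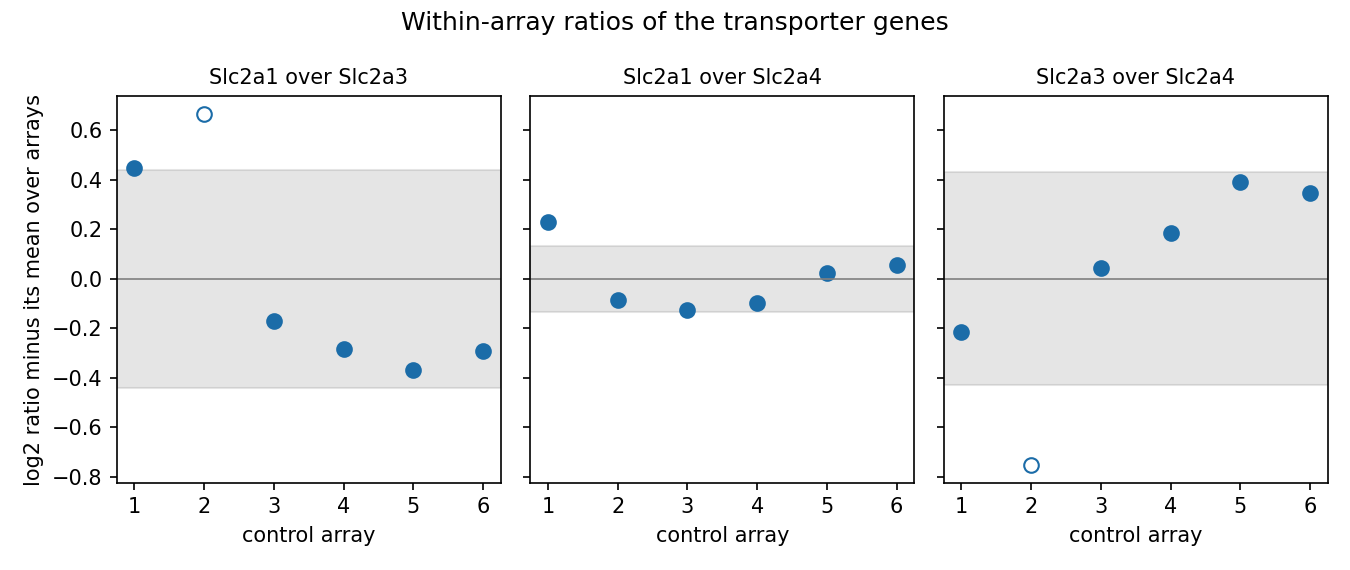
Log2 ratio of each pair of transporter genes on each control array, minus the mean over the 6 arrays, with the grey band at ± 1 SD and open circles where 1 of the genes was below the noise bound. The ratio of Slc2a1 to Slc2a4 has an SD of 0.13, and both ratios with Slc2a3 are displaced in controls 1 and 2.

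Controls 1 and 2 also differed from the rest in measures of the whole array, and the part of these in the Slc2a3 ratios was not tested. They had 143 and 109 probes above the noise bound, against 153 to 166 on the other 4 arrays. The 10 brightest probes gave 81.3% and 83.9% of their summed intensity, against 76.2% to 78.9%. Of all 152 genes and probes, 51 had their highest level in control 1 and 41 in control 2. The lowest level was in control 1 for 30 of them and in control 2 for 36. How many of the 152 separate controls 1 and 2 from the rest was not counted. The separation of a marker is therefore no result about cell types. Some cell type markers differed along with the ratios. The mean level of the 5 endothelial markers on the array was -0.12 and 0.15 in controls 1 and 2 and 0.20 to 0.55 in controls 3 to 6, and their summed intensity was 0.0962 to 0.478 over the arrays. Of the 5, Cdh5 and Flt1 were lower in both controls 1 and 2 than in the rest, while Kdr was higher there (0.30 and 0.53 against 0.066 to 0.17), and Pecam1 and Tek did not separate these arrays. The mean level of the 7 fibre markers was 5.50 in both controls 1 and 2, against 4.65 to 5.13. Myh7, Myh2, Myh4 and Des were higher in both than in the rest, while Mb, Myh1 and Ttn did not separate these arrays. Mb was 6.72 in control 1 and 6.93 in control 4, and Ttn was 4.86 and 5.06 there. Myh1 was 4.53 in control 2 and 4.65 in control 3. The adipocyte marker Fabp4 had levels of 2.53 and 3.39 in controls 1 and 2 and 1.59 to 2.51 in the others. The mean of the 2 measured satellite cell markers was -1.32 and -0.94, against -2.76 to -1.40, but neither gene separated these arrays alone. Myod1, above the noise bound on 4 arrays, was highest in control 5 (-0.91). Myog was higher in control 4 (-0.945) than in control 1 (-1.42). The mean of the 2 fibroblast markers was 1.29 and -0.17, against -0.41 to 0.25, which overlap. The blood and immune list had 1 gene on the array, Csf2rb, at levels of -3.42 and -3.70 in controls 1 and 2 and -1.14 to -0.00449 in the others. In controls 1 and 2 Csf2rb lay below the noise bound, so its levels there have no reliable size. They are at most -2.24 and -1.21 with the bound in its place. Hbb-bt, Hba-a1 and Ptprc were not among the genes named for this array, nor were any of the 5 nerve genes listed.

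Beside other pairs of genes, the ratio of Slc2a1 to Slc2a4 was among the steadiest. Over all 11476 pairs of measured genes and probes the median SD of the log2 ratio was 0.80, and 0.157% of pairs had a smaller SD than this one. The median was 0.58 among pairs of named genes detected on all 6 arrays. By this measure each was the third closest of the other's 151 partners. The closest to Slc2a1 were the glycolytic kinase Pgk1, at 0.12, and the protease inhibitor Timp1, at 0.12. Closest to Slc2a4 were the ribosomal protein gene Rps29, at 0.090, and the giant sarcomere protein Ttn, at 0.12. Pairs of probes whose IDs share a number and have consecutive letters had a median SD of 0.67. Slc2a1 with Slc2a3 and Slc2a3 with Slc2a4 are such pairs. Slc2a1 with Slc2a4, at 19F and 19H, is not. The pairs with Slc2a3 had SDs of 0.44 and 0.43, and 17.3% and 16.3% of all pairs had smaller ones.

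**Figure D5:**
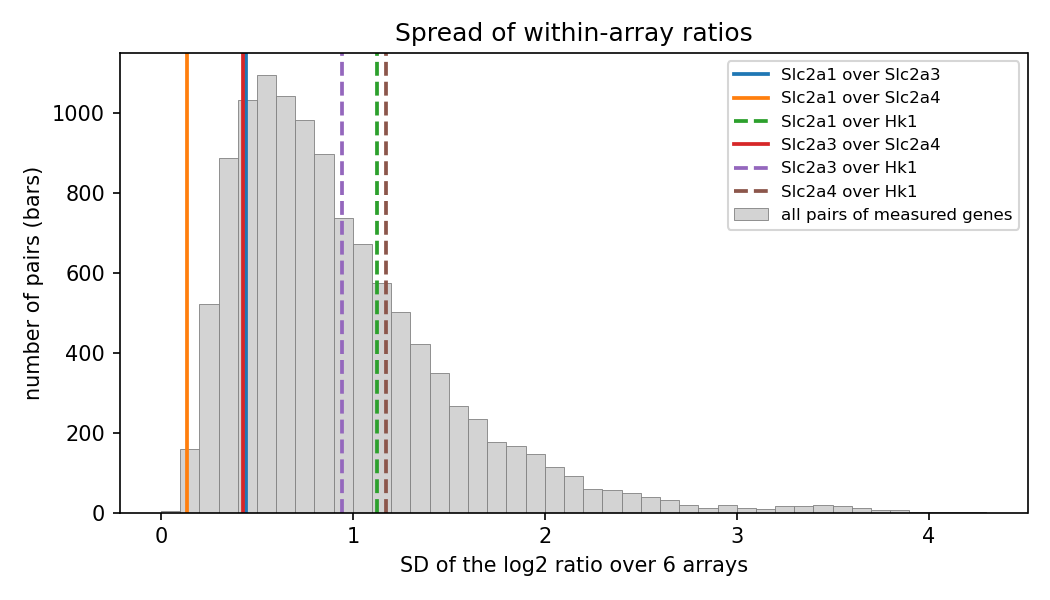
Number of pairs (bars) by the SD of their log2 ratio over the 6 arrays, for all 11476 pairs of measured genes and probes, with lines at the 6 pairs formed by Slc2a1, Slc2a3, Slc2a4 and Hk1. Slc2a1 over Slc2a4 stands at the left edge at 0.13, and the dashed pairs with Hk1 lie at 0.94 to 1.17.

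Ratios with Hk1 could be read on 4 arrays. Slc2a4 was 20.2, 31.2, 24.2 and 39.4 times as bright as Hk1 in controls 1, 3, 4 and 6. In controls 2 and 5, where Hk1 was below the bound, the ratio was at least 15.8 and 33.0 with the bound in its place. For Slc2a1 the 4 measured ratios to Hk1 were 2.70, 3.26, 2.58 and 4.67, a 1.81-fold range. The same arrays gave 1.58, 2.93, 2.51 and 4.57 for Slc2a3 over Hk1, a 2.88-fold range. Each of the 3 ratios was highest in control 6 among these 4 arrays.

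Correlation of levels over the 6 arrays was computed for the 6 pairs of the 4 genes. In two-sided exact permutation tests, 0 pairs passed at an adjusted p under 0.05. For Slc2a1 and Slc2a4 Pearson's r was 0.926 and Spearman's rho 0.886. The exact permutation p was 0.00833 for r and 0.0333 for rho, and adjustment over the 6 pairs brought these to 0.05 and 0.2. This pair alone had an unadjusted p under 0.05. Leaving out controls 5 and 1, the arrays farthest from the median of Slc2a1, gave r = 0.902. With control 5 alone left out r was 0.789, the lowest with 1 array left out. Its adjusted p in the exact permutation test was 0.45. Over alternatives in the processing its r was 0.768 to 0.988, with adjusted p from 0.00833 to 0.45 in the exact permutation test. That p was 0.00833 both with only genes detected on all arrays, where 1 pair was tested, and with a looser filter, where all 6 pairs were. The smallest p that 720 pairings allow is 0.00139.

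The pairs with Slc2a3 or Hk1 had no settled relation. For Slc2a3 and Hk1 r was 0.808 and rho 0.6, with exact permutation p of 0.0556 and 0.242 and adjusted p of 0.167 and 0.725. Leaving out controls 2 and 4 gave r = 0.317. Both genes lay below the bound in control 2, and r was -0.099 once values were raised to the bound. The bound then sets both values of control 2, and makes its Hk1 level the highest. For Slc2a1 and Slc2a3 r was 0.099 and rho -0.086, with exact permutation p of 0.847 and 0.919 and adjusted p of 0.874 and 0.919. Leaving out controls 5 and 1 gave r = -0.51. For Slc2a3 and Slc2a4 r was 0.077 and rho -0.26, with exact permutation p of 0.874 and 0.658 and adjusted p of 0.874 and 0.919. Leaving out controls 2 and 4 gave r = 0.602. The r of Slc2a3 with Slc2a1, and that with Slc2a4, changed sign with the arrays left out.

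The hexokinase gene Hk1 had r = 0.272 and rho = 0.371 with Slc2a1, with exact permutation p of 0.606 and 0.497 and adjusted p of 0.874 and 0.919. Leaving out controls 5 and 1 gave r = -0.61. With Slc2a4 it had r = 0.134 and rho = 0.143, with exact permutation p of 0.774 and 0.803 and adjusted p of 0.874 and 0.919. Leaving out controls 5 and 6 gave r = -0.34. These values rested on control 2, where Hk1 has no reliable size. Without control 2, r of Hk1 was 0.907 with Slc2a1 and 0.930 with Slc2a4, with adjusted p of 0.117 and 0.05 in the exact permutation test. With values raised to the bound, r was 0.841 with Slc2a1 and 0.901 with Slc2a4. Adjusted p in the exact permutation test was 0.0528 and 0.025. Raising gives control 2 the highest Hk1 level, -1.21, which the noise bound sets, and Slc2a4 was also highest in control 2. These r and p values therefore include an Hk1 level that was not measured, and show no relation by themselves. The labels give no batch within which to repeat these values.

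Genes whose pattern over the 6 arrays was most like that of each gene were taken among 100 named genes above the noise bound on all arrays, by Pearson's r of the levels and with no test. All points of such an r share the arrays and their centring, and over all pairs of measured genes r had a median of 0.064 and quartiles of -0.48 and 0.57. For Slc2a1 the 5 highest were the lactate dehydrogenase subunit Ldhb (0.976), the topoisomerase Top3b (0.965), the pyruvate dehydrogenase subunit Pdha1 (0.960), Pgk1 (0.941) and Timp1 (0.940). For Slc2a4 they were Pdha1 (0.980), Rps29 (0.966), Ldhb (0.963), Ttn (0.962) and Myh7 (0.957). The lists of Slc2a1 and Slc2a4 thus had Ldhb and Pdha1 in common. For Slc2a3 they were the fatty acid regulator Ppara (0.971), the IGF-binding protein Igfbp6 (0.831), the integrin subunit Itgb5 (0.736), the tenascin Tnxb (0.716) and the angiopoietin Angpt2 (0.706). Hk1 had Itgb5 (0.901), Ppara (0.816), the growth factor receptor Fgfr1 (0.796), the transcriptional regulator Cited2 (0.793) and the laminin chain Lamc1 (0.673). The Hk1 levels used for these r include controls 2 and 5, where Hk1 was below the noise bound. Those of Slc2a3 include control 2, where it was below the bound. The Hk1 level of control 2 has no reliable size, so neither have the r values of Hk1. By Spearman's rho, 1 of the 5 genes was kept for Slc2a1, 2 for Slc2a3, 1 for Slc2a4 and 3 for Hk1.

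Other genes of glucose handling were compared by how steady their ratio to Slc2a4 was. Of 24 listed genes of glucose uptake and glycolysis, 7 were on the array, and all 7 lay above the noise bound of every array, against 47.5% of all probes. In the limma test for excess spread 0 of the 7 passed, against 1.32% of all 152, which is no result about these genes. Their median SD was 0.37, beside 0.54 over all measured genes and probes. The SD of the log2 ratio to Slc2a4 was 0.14 for Pgk1, 0.19 for Gapdh, 0.23 for Ldhb, 0.27 for the aldolase Aldoa 0.34 for the transporter Slc2a2 and 0.35 for the enolase Eno2. It was larger for the lactate dehydrogenase subunit Ldha, at 0.47. Of the 7 genes, 6 had their lowest level in control 5, as Slc2a4 and Slc2a1 did, and Eno2 had its lowest in control 6. Over all 152 genes and probes, 58 were lowest in control 5. Over these 7 genes the mean level was 3.55, 3.78, 3.17, 3.34, 2.74 and 3.19 in controls 1 to 6.

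Insulin receptor and regulator genes were also on the array, 8 of 22 listed. Of the 8, 4 lay above the noise bound of every array, near the 47.5% of all probes that did, and 1, the IGF receptor gene Igf1r, on none. In the limma test for excess spread 0 of the 7 measured passed, against 1.32% of all 152. The insulin receptor Insr, above the bound on 3 arrays, had an SD of 0.38 and an SD of 0.28 for its log2 ratio to Slc2a4. The muscle transcription factors Mef2c and Mef2a, regulators known to act on the Slc2a4 gene, had ratio SDs of 0.39 and 0.75. The hypoxia factor Hif1a, above the bound on 3 arrays, had a ratio SD of 0.70 to Slc2a1, and its partner Arnt had 0.45. Their target Vegfa, the endothelial growth factor gene, had 0.37.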

How the data were processed

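The deposited table held 1 intensity per probe and array for 223 probes on 6 control arrays, on a linear scale with some values below 0. How the authors scanned, background-corrected or scaled the intensities is not given in the sources used here. Probes were named through the platform annotation (205 with 1 gene, 0 with several, 18 with none). Binding of a probe to related transcripts was not checked, as no probe sequence was used.

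The deposited intensities were log2-transformed. The 153 probes above 0 on all 6 arrays were kept, probes of 1 gene were averaged, and each array was centred on its median over the resulting 152 genes and probes. Values below an array's noise bound but above 0 stayed in levels, SDs and ratios. Excess spread was tested with limma 3.58.1 in R 4.3.3, with an intercept per gene and a robust prior variance with an intensity trend (6.12 degrees of freedom). A one-sided F test gave the p-values, with Benjamini-Hochberg adjustment over the 152. The test was tried on simulated data whose wide genes had SDs far above the prior. That trial does not show how often the test finds a smaller excess. Correlations between genes used two-sided exact permutation tests over 720 pairings, adjusted over 6 pairs. The arrays give no counts, and their number limits the precision. With 1 group there was no comparison between groups. The text names the 4 genes, for each the 5 genes with the highest Pearson's r among those above the noise bound on all arrays, and genes of fixed pathway and marker lists; the partners closest by ratio were added after the values were seen. The members, lists and tests were chosen with earlier results of these data known. Alternatives were each replicate left out, other centring and normalization, a pseudocount of 0.000335, other filters, other noise bounds and other priors.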

Additional observations from a re-analysis of the deposited data

Results flagged for a closer look

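Control 4 stood far above the other arrays in the deposited intensity of all 4 genes, at 0.0402 for Slc2a1, 0.0392 for Slc2a3, 0.3781 for Slc2a4 and 0.0156 for Hk1. Its summed intensity of 125.2 was also the highest, and the levels centred on the array median had no such outlier for these genes. Control 2 stood apart in the log2 ratio of Slc2a1 over Hk1, at 4.39, and of Slc2a4 over Hk1, at 7.61, where Hk1 was below the noise bound and has no reliable size. With the bound in place of Hk1 these ratios are at least 1.69 and at least 15.8 on a linear scale, lower limits that lie below the values of the other arrays, so that control 2 is not shown to stand apart. The gap to the nearest array was a larger part of the range than Dixon's critical value in these 6 of 14 sets of values, and chance alone would mark about 1 set in 20. The 4 intensities share 1 array and the 2 ratios share 1 Hk1 value, so they are not separate events.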

How the results depend on the processing

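The 3 mean log2 ratios between transporter genes kept their sign under all 10 alternatives tried for them, and each moved by less than its SD. Leaving out a replicate could not move any of the 3 means by as much as its SD or change its sign. Raising values to the noise bound could not alter Slc2a1 over Slc2a4, as both lay above it on every array. These alternatives are therefore no check of the means in question. Slc2a1 over Slc2a4 ranged from -3.20 to -3.10, Slc2a3 over Slc2a4 from -3.55 to -3.30 and Slc2a1 over Slc2a3 from 0.19 to 0.39. The number of the 4 genes past the threshold for excess spread was 0 in all 16 alternatives of the limma test, 2 genes being testable with the noise-bound filter, while the number over all genes was 0 to 2. Mean levels depend on which genes set the array median. With only genes above the noise bound the level was -1.75 for Slc2a1 and 1.39 for Slc2a4. With the looser filter of 4 arrays it was -0.24 for Slc2a1, -0.56 for Slc2a3 and 2.89 for Slc2a4. Leaving out each replicate gave -1.04 to -0.53 for Slc2a3, the latter without control 2. The number of pairs past the threshold for co-variation in the exact permutation test was 1 without centring, with the noise-bound filter and with the looser filter, each time Slc2a1 with Slc2a4, and 2 with values raised to the bound. Without centring, Slc2a1 and Slc2a4 both carry the brightness of the array. With values raised to the bound, the added pair was Slc2a4 with Hk1, where the bound sets the Hk1 levels of controls 2 and 5. With replicates left out, r was -0.29 to 0.56 for Slc2a1 with Slc2a3, -0.12 to 0.91 for Slc2a1 with Hk1, -0.49 to 0.71 for Slc2a3 with Slc2a4 and -0.16 to 0.93 for Slc2a4 with Hk1. It was 0.79 to 0.98 for Slc2a1 with Slc2a4. For Slc2a1 with Slc2a3 r was -0.23 after quantile normalization, and rho was -0.086. For Slc2a3 with Slc2a4 rho was -0.26, and for Slc2a3 with Hk1 r was -0.099 with values raised to the bound. Centring on the array sum gave r = 0.681 for Slc2a1 with Slc2a3, 0.755 for Slc2a3 with Slc2a4 and 0.908 for Slc2a1 with Hk1, with adjusted p of 0.108 to 0.115 in the exact permutation test. The cause was not tested. The SD of the log2 ratio of Slc2a1 over Slc2a4 was 0.21 after cyclic loess. Signal over background limits Hk1 on all arrays and Slc2a3 in control 2. No paired analysis was possible because the labels give a single group.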

Other observations

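The array also carried a probe for Slc2a2, which encodes GLUT2, the transporter best known from liver, intestine, kidney and pancreatic islets. It read 0.0404, 0.075, 0.079, 0.2441, 0.0449 and 0.0534 in controls 1 to 6 and lay above the noise bound on all 6 arrays. Its level was 1.72 ± 0.46 (log2 intensity minus the array median, SD, n = 6), from 1.13 in control 5 to 2.39 in control 2. The log2 ratio of Slc2a2 to Slc2a4 was -1.41 in control 1, -0.38 in control 2 and -0.76 to -0.63 in controls 3 to 6. Its SD of 0.34 was larger than the 0.13 of Slc2a1 with Slc2a4 and smaller than the 0.43 of Slc2a3 with Slc2a4, differences that were not tested. Whether the Slc2a2 probe also binds other transcripts was not tested.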
